A study of Drosophila melanogaster with 12 samples.

Results

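The smallest of 3 levels of splicing change in a computer-simulated RNA sequencing experiment is described here, gene by gene and by gene function. The libraries titled KD_ASchange_20% were compared with the control libraries, and the material was the set of deposited score tables made from that pair of groups. These are 6 of the series' 12 libraries and 6 of its 18 score tables. The KD_ASchange_20% group holds 3 libraries labelled as S2 cells given an siRNA against PSI, and the control group holds 3 libraries labelled as S2 cells given a non-targeting siRNA. Per the design text, no cell was treated, since all libraries were generated in silico to model that knockdown. Each table gives 1 score per gene for all 6 libraries together. A value per library, a spread between replicates and a test over samples therefore cannot be had, and the read depth is unknown. The authors' gene lists place 2000 genes on an AS list (alternatively spliced) and 14595 genes on a non-AS list, 16595 genes in all.

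Alternative splicing joins the exons of 1 gene in more than 1 way, by skipping an exon, by moving a splice site or by keeping an intron. PSI is an RNA-binding protein with KH domains, known as a splicing repressor of the P-element transposase pre-mRNA in somatic fly cells, and S2 is an embryonic Drosophila line with hemocyte-like properties. The programs read splicing in different ways. JUM and MAJIQ compare the use of splice junctions that share a site, rMATS and MISO compare inclusion of defined events, Whippet follows paths through a graph of exon parts, and Cufflinks compares whole transcripts assembled from reads.

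A gene is called here when its score is at least 0.95, or for MISO when the Bayes factor is at least 10. The tables hold no expression level, so the S2 label could only be looked up by name. Of 9 hemocyte-like markers on the lists, 5 were AS-list genes and 4 of those were called by at least 1 program, beside 38.5% of the whole AS list. None of 4 neuron markers (elav, nSyb, brp, Syt1), 3 muscle markers (Mhc, Act57B, up) or 3 fat body markers (Lsp1alpha, Fbp1, Yp1) was on the AS list. Of 3 germ line markers, 1 was (vas, a germline RNA helicase, called by none). Of all genes on both lists, 12.1% are AS-list genes. Of 42 genes in the neuronal and isoform-rich group below, 8 are AS-list genes, so these short marker lists do not tell cell types apart. Psi itself (FBgn0014870, 16861321 to 16867714 on arm 2R; all positions are those of BDGP6.54) is a non-AS-list gene. Cufflinks alone listed Psi in the authors' deposited table for the 20% level, at 0. The tables hold no measure of how far Psi was reduced.

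At the 20% level Whippet called 699 AS-list genes (35.0% of the list), JUM 515 (25.8%), MAJIQ 374 (18.7%), rMATS 354 (17.7%), Cufflinks 184 (9.2%) and MISO 1 (0.05%). On the non-AS list the same thresholds called 69 genes with Whippet, 58 with JUM, 23 with MAJIQ, 23 with rMATS, 11 with Cufflinks and 1 with MISO. Between 89.9% and 94.4% of the genes called by each of the first 5 programs were AS-list genes, and 1 of 2 for MISO. MAJIQ and Cufflinks called far fewer AS-list genes at this level than at the larger levels. MAJIQ called 374, 576 and 607 AS-list genes at the 20%, 40% and 60% levels, and Cufflinks 184, 394 and 481. JUM called 515, 557 and 566, rMATS 354, 397 and 415, and Whippet 699, 807 and 866. All levels share the 3 control libraries.

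**Figure D1:**
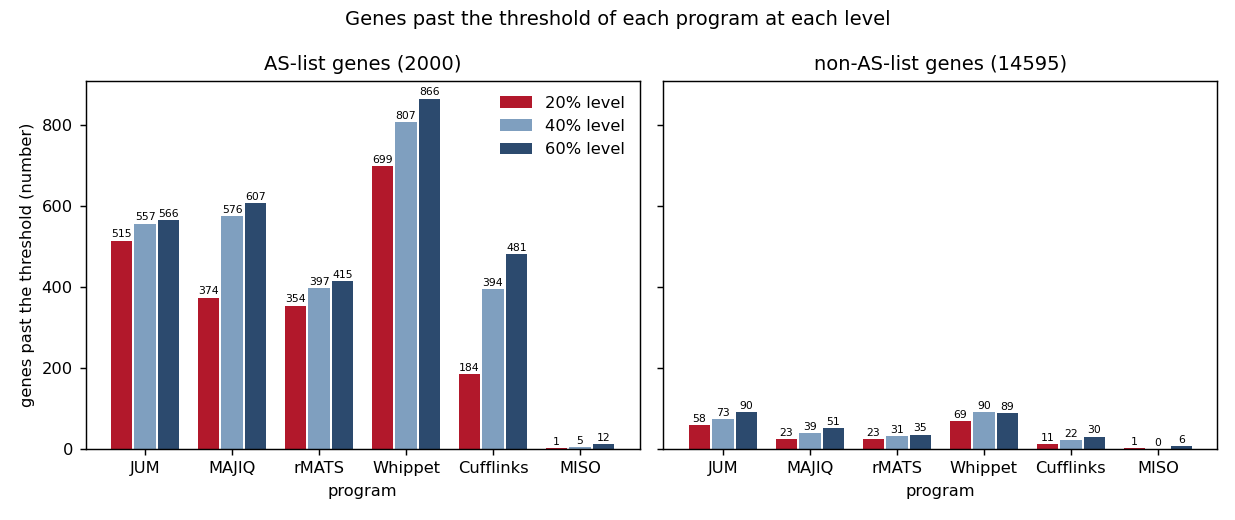
Number of genes past the threshold (vertical axis) for each program (horizontal axis) at the 20%, 40% and 60% levels, with the 2000 AS-list genes on the left and the 14595 non-AS-list genes on the right. Bars are counts printed above them and have no error. The bars of MAJIQ and Cufflinks are lowest at 20% by the widest margins (374 against 607 and 184 against 481 at 60%).

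How many genes a program listed at all set an upper bound on its calls. Cufflinks listed 1822 AS-list genes and Whippet 1551, while MAJIQ listed 729, JUM 611, rMATS 511 and MISO 128. Of the genes it listed, JUM called 84.3% on the AS list and 6.47% on the non-AS list. rMATS called 69.3% and 3.05%, MAJIQ 51.3% and 1.84%, Whippet 45.1% and 3.29%, Cufflinks 10.1% and 0.0877%, and MISO 0.781% and 0.535%. JUM therefore left few listed AS-list genes below its threshold, while most listed AS-list genes stayed below the threshold in Whippet, Cufflinks and MISO.

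MAJIQ gave graded scores to AS-list genes at the 20% level. Of its 729 listed AS-list genes, 204 (28.0%) scored between 0.05 and 0.95. In the tables of the larger levels that number was 32 (4.34%) at 40% and 9 (1.23%) at 60%. MAJIQ scores of exactly 1 went to 69 AS-list genes at 20%, 446 at 40% and 580 at 60%. JUM had 416 AS-list genes at exactly 1 at the 20% level, Whippet 491 and rMATS 218. Cufflinks gave no gene a score of 1 and gave 1371 AS-list genes a score of 0. Whippet gave no listed gene less than 0.5, so 0.5 was the floor of its scores. Of its 1551 listed AS-list genes, 367 scored from 0.5 to 0.55, near that floor. The median MISO Bayes factor was 0.355 over AS-list genes and 0.34 over non-AS-list genes.

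**Figure D2:**
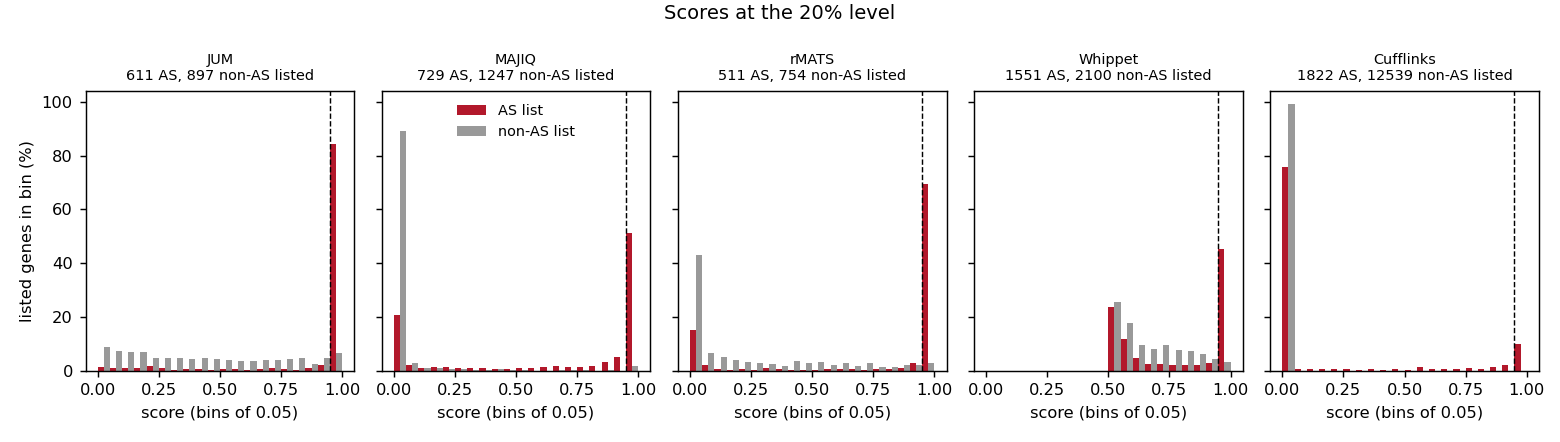
Share of the listed genes (vertical axis, %) in score bins of 0.05 (horizontal axis) for 5 programs at the 20% level, AS list in red and non-AS list in grey, with the threshold of 0.95 dashed. The last bin holds 84.3% of JUM's listed AS-list genes and 10.1% of those of Cufflinks, and Whippet has no score below 0.5.

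Genes next to the thresholds show what the line divides. CG3831 in the authors' deposited table of JUM scored 0.953 and was called, and CG9961 scored 0.949 and was not. In that of MAJIQ, dpr2 (a cell-surface protein of the immunoglobulin family) scored 0.9502 and Aats-pro (a prolyl-tRNA synthetase) 0.9498. In that of rMATS, CG11658 scored 0.951 and PP2A-B' (a regulatory subunit of protein phosphatase 2A) 0.94998. Whippet gave CG5937 0.949 in the authors' deposited table. Cufflinks gave Tao (a protein kinase) 0.951 and CG14464 0.947 in the authors' deposited table. Among AS-list genes the MISO gap was wide in the authors' deposited table, with kra (a translation regulator related to eIF5) at 1e12 and RpS15Aa (a ribosomal protein) at 6.64. The other MISO call, RAF2 on the non-AS list, had a Bayes factor of 22.9 in the authors' deposited table.

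At least 1 program called 771 AS-list genes at the 20% level (38.5%), and 1229 (61.5%) were called by none. Exactly 1 program called 222 genes, 2 called 94, 3 called 192, 4 called 174, 5 called 89 and 6 called 0. At least 4 programs thus called 263 genes (13.2%). In the tables of the larger levels, at least 1 program called 882 genes (44.1%) at 40% and 935 (46.8%) at 60%, and at least 4 called 397 (19.9%) and 432 (21.6%). The most frequent sets of calling programs were Whippet alone with 183 genes, JUM, MAJIQ, rMATS and Whippet together with 116, JUM, MAJIQ and Whippet with 93, and all but MISO with 89. Calls by 1 program alone were rarer elsewhere, with 20 genes for JUM, 11 for rMATS, 7 for MAJIQ, 1 for Cufflinks and 0 for MISO.

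A gene can be called only by a program that lists it, so the counts below are capped by listing. Of the 85 AS-list genes listed by 6 programs, 83 were called by at least 1 and 63 by at least 4. Of the 342 listed by 5 programs, 326 and 185 were. Of the 710 listed by 2 programs, 137 were called by at least 1, and of the 409 listed by 1 program, 4 were. A further 76 AS-list genes were in none of the 6 tables.

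The AS-list genes with the strongest calls at the 20% level scored at or near 1 in 5 programs. Ranked by mean rank among the 89 genes called by 5 programs, the leading genes included CG30122, Gprk2, RpL36, fabp, CDase, RpL13, Rab5, CG31523, CG3209, CG42389, iPLA2-VIA, Tsp26A and CG6236. Gprk2 is a G protein-coupled receptor kinase on arm 3R (31405245 to 31457873, 2 annotated intron chains). It scored 1 in JUM, MAJIQ, rMATS and Whippet and 0.999 in Cufflinks in the authors' deposited table. CDase (neutral ceramidase), iPLA2-VIA (a calcium-independent phospholipase A2), CG3209 (a glycerol-3-phosphate acyltransferase, now Gpat4) and fabp (a fatty acid binding protein) were among them. Their Cufflinks scores in the authors' deposited table were 0.995, 0.999, 0.974 and 0.999. Rab5, the GTPase of early endosomes, had 9 annotated intron chains and a Cufflinks score of 0.987 in the authors' deposited table. Tsp26A, a tetraspanin, scored 0.999 there in Cufflinks. MISO listed 2 of these genes, with Bayes factors in the authors' deposited table of 5.16 for iPLA2-VIA and 2.44 for Tsp26A, both under its threshold. The Cufflinks scores of these genes ran from 0.971 to 0.999. The genes were ranked by their scores in these programs, so high values follow from the choice.

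The single MISO call on the AS list was kra, on arm 3R (5595364 to 5601136, 6 annotated intron chains), whose protein is related to eIF5 and acts in translation. It scored 1 in JUM, MAJIQ and Whippet in the authors' deposited table, and neither rMATS nor Cufflinks listed it. No AS-list gene was called by 6 programs at the 20% level. In the tables of the larger levels 2 genes were at 40% and 7 at 60%.

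A set of 8 AS-list genes was called by 0 programs at the 20% level and by 5 at the 60% level. They were chosen for that difference, so their values are a description. They were mwh, Asph, bab1, v(2)k05816, CR43857, CG32432, CG6340 and CG34232. For mwh, which limits wing hairs to a single hair per cell and lies on arm 3L (1200786 to 1232700), the authors' deposited table gives JUM scores of 0.881, 0.998 and 1 at the 20%, 40% and 60% levels. Its MAJIQ scores in the authors' deposited table were 0.132, 0.998 and 1, and its Cufflinks scores 0.482, 0.995 and 0.9997. For Asph, an aspartyl beta-hydroxylase, the authors' deposited table gives MAJIQ scores of 0.489, 0.998 and 0.9999997 and rMATS scores of 0.299, 0.976 and 0.999995. The BTB transcription factor bab1 (arm 3L, 1036369 to 1101089) came close to the line at 20%, with 0.939 in JUM and 0.92 in rMATS in the authors' deposited table, but with 0.152 in MAJIQ and 0 in Cufflinks. CG34232 scored 0.945 in Whippet and 0.12 in JUM in the authors' deposited table, and CG6340 0.936 in Cufflinks and 0.00513 in MAJIQ. At 20% bab1, CG34232 and CG6340 thus stood under the line by a narrow margin in some program. Others did not, with highest scores in the authors' deposited table of 0.881 for mwh and 0.763 for v(2)k05816. In MAJIQ the margin was wide, with scores from 0.00513 to 0.489 in the authors' deposited table for the 7 genes it listed. The fatty acid synthase gene v(2)k05816 (now FASN2) was not listed by JUM or MAJIQ at 20%.

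**Figure D3:**
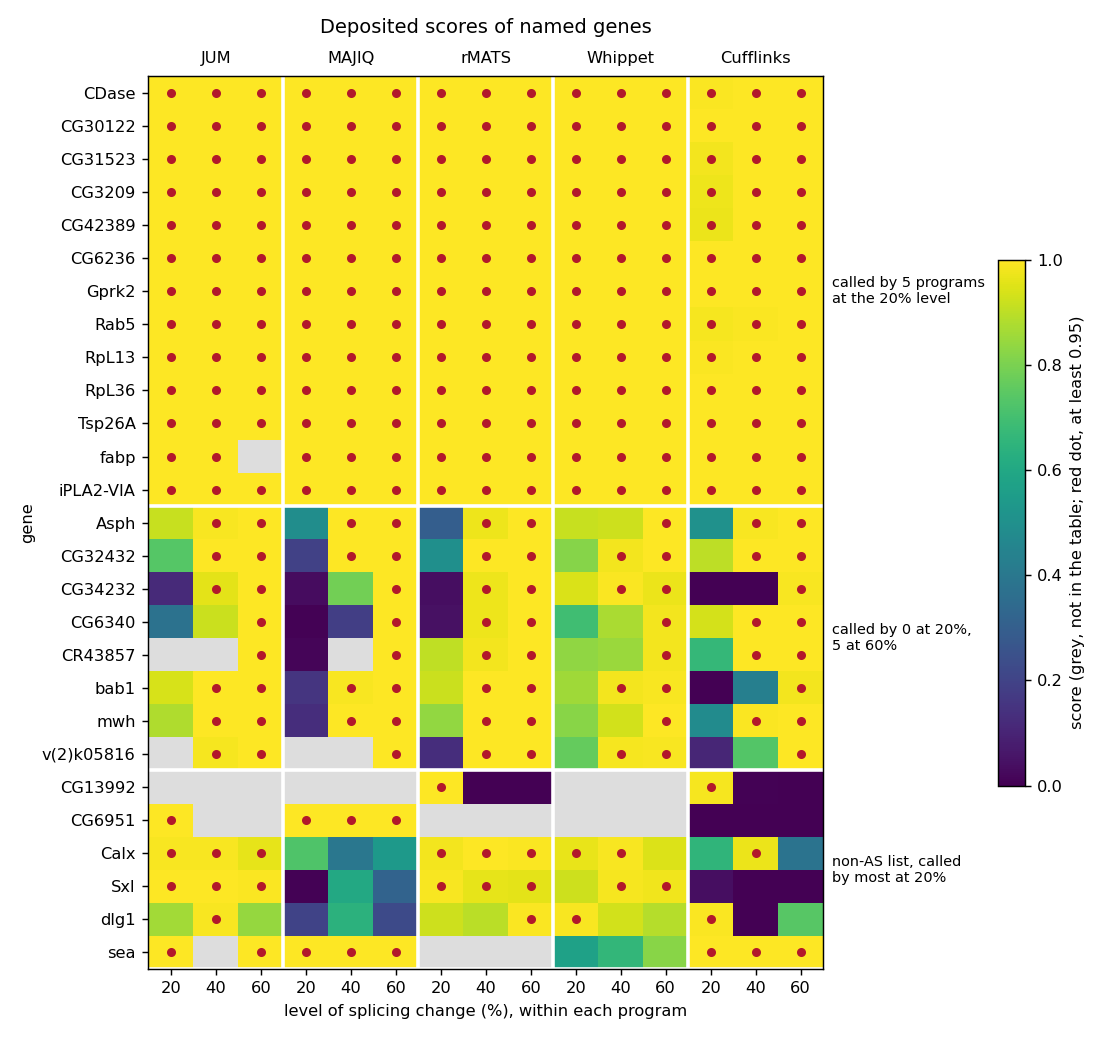
Deposited scores (colour, 0 to 1) of named genes (rows) in 5 programs at the 20%, 40% and 60% levels (columns within each program), with a red dot where the score is at least 0.95 and grey where the gene is not in the table. The 13 upper genes are called in all 5 programs at 20%, the 8 middle genes in none, and the 6 lower genes are on the non-AS list.

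Other genes were uncalled at the 20% level although most programs listed them. Hydr1, an alpha/beta hydrolase, was listed by 6 programs, and in the authors' deposited table it scored 0.789 in JUM, 0.0128 in MAJIQ, 0.227 in rMATS, 0.782 in Whippet, 0 in Cufflinks and 1.28 in MISO. At 40% it was called by 1 program and at 60% by 3. CG9705 was also listed by 6 programs and scored 0.143 in JUM, 0.000718 in MAJIQ and 0.578 in Whippet in the authors' deposited table. A few AS-list genes were called by more programs at 20% than at 60%, and 4 were named by rule: fabp, Poc1 (a centriole protein), Ect4 (the fly SARM protein) and CG4449 (now Rad60, of the SUMO-like Rad60 family). For Ect4 the Cufflinks scores in the authors' deposited table were 0.999, 0.9996 and 0.746 at the 20%, 40% and 60% levels. For CG4449 they were 0.959, 0.9996 and 0.896 in the authors' deposited table. For fabp and Poc1 the gene was absent from the JUM table at 60%, where its JUM score had been 1 at 20% in the authors' deposited table.

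The genes named for a call by 1 program alone are these. Whippet alone called CG14464, CG42346 and Scm, a Polycomb group protein, each with a score of 1 in the authors' deposited table and each with 1 annotated intron chain. Their Cufflinks scores in the authors' deposited table were 0.947, 0.945 and 0.931, close under the line. JUM alone called FER, a tyrosine kinase, at 1 in the authors' deposited table, where MAJIQ gave 0.672 and Whippet 0.876. It also alone called CG18324 and CG10660, at 0.99 and 0.997 in the authors' deposited table. There Whippet gave these 2 genes 0.924 and 0.932, and rMATS gave CG10660 0.939. MAJIQ alone called CG14763, CG2889 and Cyp4d1, a cytochrome P450, with 1, 0.98 and 0.954 in the authors' deposited table. There Whippet gave them 0.615, 0.556 and 0.85. rMATS alone called Meics, Axud1 and CG9961, with 0.997, 0.987 and 0.968 in the authors' deposited table. There JUM gave them 0.948, 0.849 and 0.949, so 2 of these stood just under a second line. The gene that Cufflinks alone called, CG42331, scored 0.997 there and 0.871 in JUM in the authors' deposited table.

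Recovery at the 20% level differed by how many splice forms the annotation gives a gene. Transcripts of a gene that contain exactly the same introns count as 1 intron chain, and 1974 AS-list genes could be matched to the annotation. Of 1159 AS-list genes with at most 1 chain, 164 (14.2%) were called by at least 1 program and 1 by at least 4. Of 815 genes with 2 or more chains, 595 (73.0%) were called by at least 1 and 257 (31.5%) by at least 4. Counted by annotated transcripts, 2 of 831 AS-list genes with 1 transcript (0.241%) were called by at least 1 program. With 2 or more transcripts, 757 of 1143 (66.2%) were, so the class of at most 1 chain mixes unlike genes. Along the classes of 2, 3 to 4, 5 to 9, and 10 or more chains, the share called by at least 4 programs was 21.7%, 32.7%, 46.9% and 54.5%. JUM called 45.3%, 66.2%, 83.0% and 95.5% of those classes, and MAJIQ 34.3%, 49.6%, 53.1% and 68.2%. Cufflinks did not follow that order, with 18.7%, 23.5%, 21.8% and 13.6%. Listing differed by chains too: JUM listed 194 of 364 genes with 2 chains and 42 of 44 with 10 or more, and Cufflinks 338 and 41. Gene length and intron number were not set out by chain class. The parts of listing, length and introns in the result were not tested. The median gene length was 1960 bp for AS-list genes called by 0 programs, 2970 bp for 1, 3708 bp for 2, 6487 bp for 3, 7057 bp for 4 and 5947 bp for 5. The median longest intron was 86 bp for genes called by 0 programs, 2147 bp for genes called by 4 and 1657 bp for genes called by 5.

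**Figure D4:**
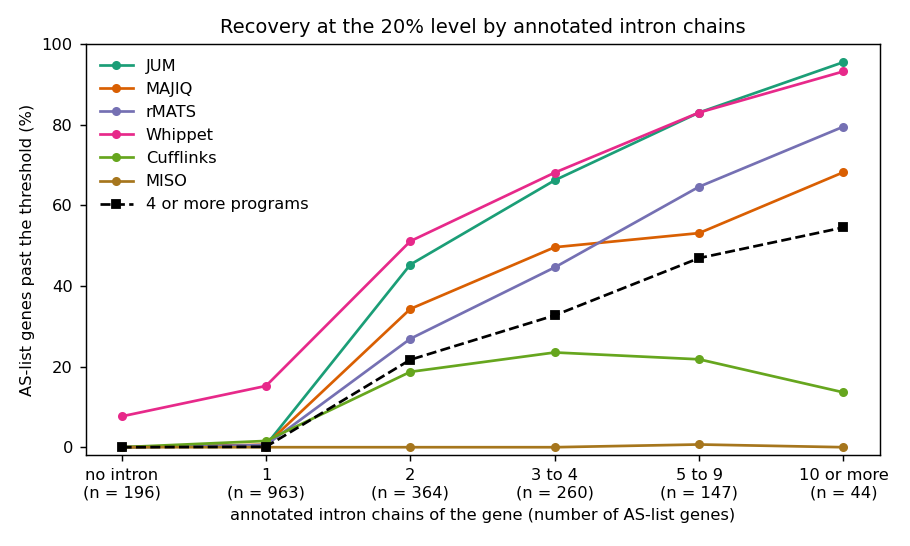
Share of AS-list genes past the threshold at the 20% level (vertical axis, %) by the number of annotated intron chains (horizontal axis, with the number of genes per class), 1 line per program and a dashed line for 4 or more programs. Whippet alone is above 2% for genes with at most 1 chain, and Cufflinks is highest at 3 to 4 chains with 23.5%.

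Genes with at most 1 annotated chain were nearly all Whippet's. Whippet called 161 of the 1159, Cufflinks 15, MAJIQ 6, JUM 5 and rMATS 5. Among the 196 genes without any annotated intron, Whippet called 15 and the other 5 programs called 0. The exception with 4 calls was CG9691, which in the authors' deposited table scored 0.997 in Cufflinks and 0.95 in Whippet. bic, a nascent polypeptide-associated complex subunit, had 1 chain too and scored 1 in JUM, MAJIQ and Whippet in the authors' deposited table. At the other end, 42 of 44 genes with 10 or more chains were called. The 2 exceptions were LpR1, a lipophorin receptor, and SK, a calcium-activated potassium channel. LpR1 scored 0.634 in Whippet and 0.0614 in rMATS in the authors' deposited table, and SK was listed by Cufflinks alone, at 0.

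Calls differed between programs by the kind of annotated alternative, counted over all genes of a class whether listed or not. A shared acceptor only means that no donor is shared and no internal exon is spanned, and likewise for a shared donor only. The classes with a spanned exon or a shared site may also hold genes with an intron inside an exon. Of 233 AS-list genes with a shared acceptor only, JUM called 157 (67.4%), Whippet 149 (63.9%), MAJIQ 117 (50.2%) and rMATS 70. Of 112 genes with a shared donor only, JUM called 68 (60.7%), Whippet 70 (62.5%), MAJIQ 49 (43.8%) and rMATS 51 (45.5%). Of 251 genes with an internal exon spanned by an annotated intron, JUM called 193 (76.9%), Whippet 195 (77.7%), MAJIQ 123 (49.0%) and rMATS 157 (62.5%). Of 84 genes whose alternative is an intron inside an exon, Whippet called 45 (53.6%), MAJIQ 36 (42.9%), JUM 26 (31.0%) and rMATS 24 (28.6%). By that count JUM led MAJIQ in every class with a shared splice site or a spanned exon and was below it for the intron inside an exon. Among listed genes the order in that last class was the reverse, with 26 of 38 called by JUM and 36 of 61 by MAJIQ. Genes with an internal exon spanned were called by at least 4 programs in 111 of 251 cases (44.2%), against 57 of 233 (24.5%) for a shared acceptor only. Listing differed too: rMATS listed 219 of those 251 genes and 104 of those 233. The part of listing in these differences was not tested.

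The function groups below are counts of AS-list members beside the whole AS list, where 38.5% were called by at least 1 program and 13.2% by at least 4. At a stricter threshold of 0.99, with a Bayes factor of 20 for MISO, at least 4 programs called 10.3% of the AS list. That setting was applied to the groups after seeing the data, and its count is given where it differs from the first by more than 1.5 times. Over the AS list the median number of calling programs was 0. The 22 groups hold 295 AS-list genes, of which 127 (43.1%) were called by at least 1 program and 60 (20.3%) by at least 4. Among the 1705 AS-list genes outside the groups, 644 (37.8%) and 203 (11.9%) were. The groups differ in annotated structure. Of their 125 members with 2 or more chains, 106 (84.8%) were called, and of their 168 members with at most 1 chain, 20 (11.9%). Over the AS list those classes had 73.0% and 14.2% called. At least 4 programs called 47.2% of the 125, beside 31.5% of all AS-list genes with 2 or more chains.

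**Figure D5:**
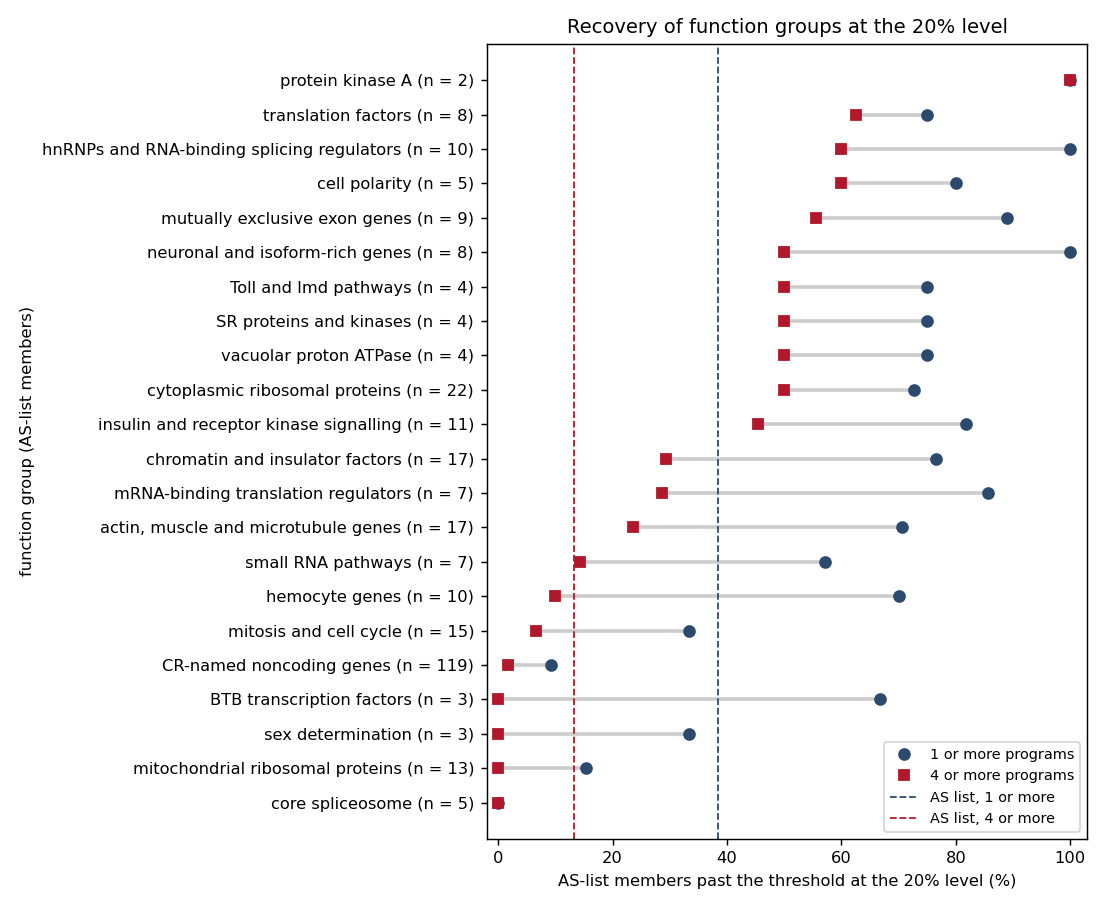
Share of AS-list members (horizontal axis, %) called at the 20% level by 1 or more programs (blue circles) and by 4 or more (red squares) for each function group (rows, with the number of AS-list members), with the whole AS list dashed. Most groups lie right of both dashed lines, and 5 lie left of both: core spliceosome, mitochondrial ribosomal proteins, sex determination, CR-named noncoding genes, and mitosis and cell cycle.

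All 10 AS-list members of the hnRNP and RNA-binding group were called by at least 1 program and 6 by at least 4, and each of the 10 has 2 or more annotated chains (median 9). The 6 were A2bp1 (the fly Rbfox), Imp (an mRNA-binding protein of the IGF2BP family), Rox8 (related to TIA1), aret (the translational repressor Bruno), heph (the polypyrimidine tract binding protein) and pUf68 (related to PUF60). Of all AS-list genes with 5 to 9 chains, 87.1% were called by at least 1 program and 46.9% by at least 4. With 10 or more chains the shares were 95.5% and 54.5%, so the group's counts lie near those of its chain classes. With 24 annotated chains, heph scored 0.9998 in JUM, 0.99 in MAJIQ, 1 in Whippet and 0 in Cufflinks in the authors' deposited table. Imp was close to the line in MAJIQ, at 0.957 in the authors' deposited table. rin (the fly G3BP) and nito (related to RBM15) were called by Whippet alone, and rin scored 0.197 in JUM and 0.00168 in MAJIQ in the authors' deposited table. Of 4 AS-list SR proteins and related kinases, B52 and SC35 were called by 5 programs and the kinase SRPK by 3. RnpS1, an exon junction complex factor with 1 annotated chain, was called by 0 and scored 0.514 in Whippet in the authors' deposited table.

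The general splicing machinery had few annotated chains and no calls. None of the 5 AS-list members of the core spliceosome group (CG10418, SmB, SmE, l(2)37Cb and snRNP-U1-C) was called by any program at the 20% level. All 5 have at most 1 annotated chain, a class in which 14.2% of all AS-list genes were called by at least 1 program. At 40% and 60%, 0 were called by 4 or more programs as well. SmB and SmE are Sm ring proteins and snRNP-U1-C is a U1 snRNP subunit. SmB and SmE each have 1 annotated transcript, and of all 831 such AS-list genes 2 (0.241%) were called. Whippet listed CG10418 at 0.52 and l(2)37Cb at 0.544 in the authors' deposited table, and Cufflinks gave all 5 a score of 0. In the sex determination group, her (an early zinc finger regulator) was called by Whippet at 1 and by Cufflinks at 0.966 in the authors' deposited table. msl-3 (dosage compensation) and vir (a regulator of Sxl splicing and of mRNA methylation) were called by 0.

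Most cytoplasmic ribosomal protein genes were called, and few mitochondrial ones. Of 22 cytoplasmic ribosomal protein genes on the AS list, 16 (72.7%) were called by at least 1 program and 11 by at least 4. All 13 of these genes with 2 or more chains were called, and 3 of the 9 with at most 1 chain, each by Whippet alone. Over the AS list those classes had 73.0% and 14.2% called. RpL10, RpL10Ab, RpL13, RpL36 and RpS9 were called by 5 programs, and in the authors' deposited table each scored 1 in JUM, MAJIQ, rMATS and Whippet. RpL36 lies on the X chromosome (628338 to 629483, 5 annotated chains). RpL31 and RpL5 scored 1 in those 4 programs and 0 in Cufflinks in the authors' deposited table. RpL21 was called by JUM and Whippet at 1 and scored 0.374 in MAJIQ in the authors' deposited table, and at the 40% and 60% levels 4 programs called it. RpL24-like, RpL27A, RpL35A, RpL39, RpS12 and RpS20 were called by 0 programs at 20%, 40% and 60%. Of 13 mitochondrial ribosomal protein genes, 2 (15.4%) were called, mRpL21 at 0.982 and mRpS18B at 1, both by Whippet alone in the authors' deposited table. All 13 have at most 1 annotated chain, a class in which 14.2% of all AS-list genes were called by at least 1 program. The 2 called genes have 3 and 2 annotated transcripts, and the others have 1. Of all AS-list genes with 1 annotated transcript, 0.241% were called, and of those with 2 or more, 66.2%.

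Most translation factors were called too. Of 8 on the AS list, 6 were called and 5 by at least 4 programs, and the 5 called by at least 4 are the 5 with 2 or more chains. They were eIF5, eIF-4B, eIF-4E (the cap-binding protein), eIF-4a (the RNA helicase) and eIF3-S9 (an eIF3 subunit). eIF5 scored 1 in JUM and Whippet and 0.999 in Cufflinks in the authors' deposited table, and eIF-4E 0.936 in Cufflinks. eIF-2beta and eIF2B-epsilon were called by 0, and eIF2B-epsilon scored 0.941 in Whippet in the authors' deposited table. Of 7 mRNA-binding translation regulators, 6 were called and 2, Pdcd4 and Smg5 (nonsense-mediated decay), by at least 4. At the stricter threshold at least 4 programs called 0 of the 7. pAbp, the poly(A)-binding protein, scored 1 in JUM, MAJIQ and Whippet and 0 in Cufflinks in the authors' deposited table.

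Of 8 neuronal and isoform-rich genes, 8 were called and 4 by at least 4 programs: Ank (an ankyrin), Appl (the amyloid precursor protein homologue), Lar (a receptor tyrosine phosphatase) and Snap25 (a synaptic SNARE). All 8 have 2 or more chains (median 5), a class in which 73.0% of all AS-list genes were called. Dscam1, the cell-surface receptor known for its very large isoform repertoire, has 75 annotated chains, scored 1 in JUM, MAJIQ and Whippet in the authors' deposited table and was not listed by rMATS or Cufflinks. At the stricter threshold at least 4 programs called 1 of the 8 genes. Nrg (neuroglian, an adhesion protein) was called by JUM alone at 20%, and its MAJIQ score of 0.942 in the authors' deposited table fell short of the line. Of 9 genes grouped here under mutually exclusive exons, 8 were called and 5 by at least 4 programs, or 2 at the stricter threshold. Tm1 (tropomyosin) scored 1 in JUM, MAJIQ, rMATS and Whippet and 0.587 in Cufflinks in the authors' deposited table. Mrp4 was the uncalled member of this group, but with 1 annotated transcript and 1 chain it has no annotated alternative exon. Adf1, a called member, has introns that share an acceptor and no internal exon spanned by an intron. The annotation thus does not bear out the group's name for every member. Among 3 BTB transcription factors, 0 were called by at least 4 programs at 20%, and 3 were at 40% and at 60%. The gene mod(mdg4), with 22 annotated chains, scored 1 in JUM and rMATS, 0.998 in MAJIQ and 0.669 in Whippet in the authors' deposited table. The gene lola, with 24 chains, scored 1 in JUM and Whippet and 0.554 in MAJIQ in the authors' deposited table.

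Blood cells are the cells that S2 resembles. Of 10 genes of blood cells and matrix on the AS list, 7 (70.0%) were called by at least 1 program and 1 by at least 4. At least 4 programs called 4 of them at 40% and 5 at 60%, and at 20% they called 0 at the stricter threshold. Pxn (peroxidasin) was called by JUM, rMATS, Whippet and Cufflinks and scored 0.62 in MAJIQ in the authors' deposited table. The GATA factor srp scored 1 in JUM, rMATS and Whippet and 0.406 in MAJIQ in the authors' deposited table, and Mmp1 (a matrix metalloproteinase) scored 0.932 there in MAJIQ. Cg25C, the type IV collagen chain now named Col4a1, scored 0.778 in MAJIQ and 0.992 in Cufflinks in the authors' deposited table. MAJIQ was thus under the line for these 4 genes, and it was over the line for ush, a GATA cofactor, at 1 in the authors' deposited table. He (Hemese) and PPO2 (a prophenoloxidase) were called by 0. Of 4 Toll and Imd genes, Ect4 and Tl (the Toll receptor) were called by 5 programs, Traf4 by 3, and ird5 (the fly IKK beta) by 0, with 1 annotated chain.

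Signalling and cytoskeletal genes were mostly called. Both AS-list subunits of protein kinase A were called by at least 4 programs, Pka-R2 by 5 and Pka-R1 by 4, and at the stricter threshold 1 of the 2 was. Of 11 insulin and receptor kinase genes, 9 were called and 5 by at least 4 programs: Pi3K92E (a phosphoinositide 3-kinase) by 5, and Pi3K68D, csw (a SHP2 phosphatase), drk (the GRB2 adaptor) and foxo by 4. At the stricter threshold at least 4 programs called 2 of the 11. For foxo, the transcription factor held back by insulin signalling, MAJIQ gave 0.674 and Cufflinks 0.961 in the authors' deposited table. Akt1, the kinase above foxo, scored 1 in JUM and 0.222 in rMATS in the authors' deposited table. Ras64B and ksr, each with 1 chain, were called by 0. Of 17 actin, muscle and microtubule genes, 12 were called and 4 by at least 4 programs at the 20% level (Tm1, Vinc, ena and stai), against 8 at 40% and 7 at 60%. Of 5 polarity genes, 14-3-3epsilon, l(2)gl and sdt were called by 4 programs, par-6 by Whippet alone and mira by 0. Of 4 vacuolar proton ATPase genes, VhaPPA1-1 and VhaSFD were called by 4 programs.

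Most chromatin genes were called. Of 17 on the AS list, 13 (76.5%) were called by at least 1 program and 5 by at least 4, or 3 at the stricter threshold. All 10 with 2 or more chains were called, and 2 of the 6 with at most 1, beside 73.0% and 14.2% over the AS list. G9a (a histone methyltransferase) and Kdm2 (a histone demethylase) were called by 5 programs. Df31, a chromatin decondensation factor, scored 1 in JUM, rMATS and Whippet, and its MAJIQ score in the authors' deposited table was near 0. Pc (Polycomb), esc, Bap170 and polybromo were called by 0, and each has 1 annotated chain. Of 7 small RNA pathway genes, Dcr-2 (the siRNA Dicer) was called by 4 programs and AGO3 by 3, and drosha, piwi and vas by 0. Of 15 cell cycle genes, 5 (33.3%, beside 38.5% of the AS list) were called by at least 1 program and 1, borr (a subunit of the chromosomal passenger complex), by at least 4. Of these 15 genes, 9 have at most 1 chain. Cdk4 and cdc2c (Cdk2) have 4 and 2 chains and were called by 0 at 20%, and cdc2c scored 0.697 in Whippet and 0.234 in rMATS in the authors' deposited table.

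Of 119 AS-list genes with a CR name (annotated as noncoding RNA or pseudogene), Cufflinks listed 48, Whippet 35, MAJIQ 15, JUM 8, rMATS 8 and MISO 0, and a gene absent from a table counts as not called. Over the AS list Cufflinks listed 1822 and Whippet 1551 of 2000 genes. Of the 119, 11 (9.24%) were called by at least 1 program and 2 (1.68%) by at least 4. The 2 were CR43628 and CR43957, and at the stricter threshold 1 was. CR43628 scored 1 in JUM, rMATS and Whippet and 0.993 in MAJIQ in the authors' deposited table. Among the 99 CR genes with at most 1 chain, 3 (3.03%) were called, and among the 19 with 2 or more, 8 (42.1%), against 73.0% for all AS-list genes with 2 or more chains.

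On the non-AS list, 166 of 14595 genes (1.14%) were called by at least 1 program at the 20% level. Of these, 149 were called by 1 program, 15 by 2 and 2 by 3. The 2 genes called by 3 programs were sea, the mitochondrial citrate carrier, and Calx, a sodium-calcium exchanger. The scores of sea in the authors' deposited table were 1 in JUM and MAJIQ and 0.999 in Cufflinks. The annotation gives sea the same span as the AS-list gene fabp, arm 3R from 11559896 to 11567054 on the same strand, so reads of the pair may not be separable. Calx scored 0.989 in JUM, 0.984 in rMATS and 0.965 in Whippet in the authors' deposited table. Sxl, the master switch of female sex determination, with 20 annotated chains, scored 0.999 in JUM, 0.991 in rMATS and 0.00589 in MAJIQ in the authors' deposited table. dlg1 (the septate junction scaffold Discs large) scored 0.99 in Whippet and 0.994 in Cufflinks there, and 0.201 in MAJIQ in the authors' deposited table. CG13992 was called by rMATS and Cufflinks at 20% (0.9999 and 0.987 in the authors' deposited table), and by 0 programs at 40% and 60%.

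Beside the whole non-AS list, called genes on it were long and rich in annotated chains, and some overlapped AS-list genes. Their median was 4 annotated chains and 8511 bp of gene length, against 1 chain and 1717 bp over the non-AS list. Only a listed gene can be called, and of the 14595 genes JUM listed 897, Whippet 2100 and Cufflinks 12539. Medians over listed genes without a call were not taken, so the part of listing in this contrast was not tested. Of 161 called and matched genes, 38 (23.6%) overlapped the span of an AS-list gene on either strand, and 28 (17.4%) that of a called AS-list gene. Among 2177 non-AS-list genes that JUM, MAJIQ, rMATS or Whippet listed and no program called, 361 (16.6%) overlapped an AS-list gene and 140 (6.43%) a called one. Besides sea, the genes called by 2 programs that overlapped were CG33054 with CG33056, CG43732 with CG42613, CG6951 with Clc (clathrin light chain) and CG42254 with BEAF-32 (an insulator protein, on the opposite strand). Whether overlap has a part in these calls was not tested.

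The rMATS table held values outside its scale for 9 genes, chosen here after their values were seen. Snap25 had -146 in the authors' deposited table, and CG4300, babo, laccase2, CG40498, Cnx99A, LM408, MRP and Mhc had -197 each. Of these, Snap25, CG4300, babo and laccase2 are AS-list genes. Snap25 and babo (a TGF-beta type I receptor) scored 1 in JUM and Whippet in the authors' deposited table, and laccase2 (a phenoloxidase of cuticle tanning) did too. What the negative numbers stand for is not given in the sources used here, and they were counted as not called.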

How the data were processed

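The libraries were generated in silico, and STAR 2.5.4b, Cufflinks and dm3 appear in the submitters' processing notes without roles. The sources used here do not give the simulator, the depth or the other program versions. Per program and level the authors deposited gene names with a score and a class label. Each score is used as the authors deposited it, and no normalization was applied. For JUM, rMATS and Cufflinks, 1 minus a p-value or q-value was assumed, for MAJIQ and Whippet a probability, and for MISO a Bayes factor. The labels neither state these scales, which were read from the values, nor say whether any adjustment for multiple testing was made.

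A gene was called at a score of at least 0.95, or a Bayes factor of at least 10. A gene absent from a table counted as not called. The class labels matched the lists in every table. For 98.4% of the 16595 names a gene was found in BDGP6.54 (Ensembl release 115), which is not dm3: 12402 by current symbol and 3931 by an older one that fits 1 gene. The tables pool the libraries, so no test over samples and no interval for replicate error was possible, and genes are not replicates. The rank threshold code was checked on simulated data. Python 3.11.15, numpy 2.4.6, pandas 2.3.3 and matplotlib 3.10.9 were used.

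The members and lists were chosen with earlier results of these data known. Named by rule were the 14 AS-list genes called by most programs (ties by mean percentile rank), the 8 losing most calling programs between 60% and 20%, up to 3 per program called by it alone and 6 listed by most programs without a call. Further ones were the 6 non-AS-list genes called by most, 4 called by more programs at 20% than at 60%, Psi, the genes beside each threshold, and up to 4 called and 2 uncalled members per function group. Further group members, the rMATS genes with negative scores, the genes with at most 1 or at least 10 intron chains named as exceptions those on chromosome 4 and RAF2 were picked with their values in view. A gene among the 14 and another among the exceptions are not reported here. The alternatives changed the thresholds, the number of programs and the structure measure, and those of thresholds for the function groups were added after seeing the data.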

Additional observations from a re-analysis of the deposited data

How the results depend on the processing

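Of 45 alternative values, 29 stayed within 1.5 times the reported count and 16 did not. At the lowest scores that at most 1% or 5% of the non-AS-list genes reach, at least 4 programs called 412 or 460 AS-list genes instead of 263, MAJIQ called 581 or 632 instead of 374, Cufflinks 451 under both instead of 184, and MISO 99 or 128 instead of 1. The scores then counted go down to 0.0461 and 0.000542 in MAJIQ, far below its customary threshold. Cufflinks reached only 126 non-AS-list genes under both settings and rMATS 464 under the second, and the 128 MISO genes are all the AS-list genes it listed. Asking for at least 3 programs gave 455 genes, and for at least 5 gave 89. With a looser threshold (0.9, or a Bayes factor of 5) MISO called 3. Calls on the non-AS list, 166 as reported, were 298 under the looser threshold, 78 under the stricter one (0.99, or a Bayes factor of 20), 622 at 1% and 1306 at 5%. Group members called by at least 1 program numbered 127, against 60 by at least 4. In an alternative added after seeing the data, that 60 became 61, 45, 79 and 90 under the looser, stricter, 1% and 5% settings. Under the 1% and 5% settings, at least 4 programs called 4 and 6 hemocyte genes (1 as reported), 8 and 8 actin, muscle and microtubule genes (4), 8 and 9 chromatin genes (5), 4 and 4 mRNA-binding translation regulators (2), 1 and 2 BTB genes (0), 2 and 2 small RNA genes (1), 2 and 3 cell cycle genes (1) and 3 and 4 CR-named genes (2). Neuronal genes numbered 5 and 7 (4), and hemocyte genes under the looser threshold 2. Calls by at least 1 program ranged from 713 to 979 around 771, and 2 or more annotated transcripts in place of intron chains gave 258 genes instead of 257. No paired analysis was possible because the tables pool the replicates of both groups into 1 score per gene. For the same reason no replicate could be left out, and neither replicate error nor depth can be judged.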

Other observations

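Genes on the small chromosome 4 were called more often at the 20% level than those on the large arms. Of 26 AS-list genes there, 18 (69.2%) were called by at least 1 program and 7 (26.9%) by at least 4, beside 38.5% and 13.2% of the whole AS list. On the large arms the share called by at least 1 program ran from 34.5% on 2R to 44.2% on the X chromosome, and that by at least 4 from 11.1% on 2L to 15.4% on 3L. Chromosome 4 also held more genes with several splice forms: 20 of 26 (76.9%) have 2 or more annotated intron chains, against 37.8% to 44.2% on the large arms. Among genes with 2 or more chains, 75% of those on chromosome 4 and 68.8% to 77.6% of those on the large arms were called. The 7 genes called by at least 4 programs were Ank, Crk (an SH2 and SH3 adaptor), Ephrin (an axon guidance ligand), Rad23 (a DNA repair and ubiquitin receptor protein), RpS3A, Zyx (zyxin, a focal adhesion protein) and the noncoding CR43957. In the authors' deposited table Crk scored 1 in JUM, rMATS and Whippet and 0.999 in Cufflinks, and Ephrin scored 0.998 in Cufflinks.

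By annotated class, 747 of 1843 protein-coding AS-list genes (40.5%) were called by at least 1 program, against 11 of 123 annotated as noncoding RNA (8.94%) and 0 of 5 snoRNA genes. Listing differed too: Whippet listed 1492 of the 1843 and 35 of the 123, JUM 592 and 9, and Cufflinks 1740 and 51. The part of listing in this contrast was not tested. Cufflinks listed 4 of the 5 snoRNA genes and no other program listed any.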
